A study of Mus musculus with 26 samples.

Results

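The genes described here are 10 members of 3 families of calcium-binding and sugar-binding proteins, namely the S100 genes S100a4, S100a6, S100a10, S100a11 and S100a13, the annexin genes Anxa1, Anxa2 and Anxa6, and the galectin genes Lgals1 and Lgals3. They were taken by name from the 35944 genes in the tables, and all 10 were among the 14616 genes that passed the filter on low counts. RNA was sequenced from sorted TCRTg101, CD8+ T cells whose transgenic receptor recognizes the mouse leukemia line C1498. Cells recovered from leukemia-bearing mice had been transferred into these mice as naive cells. The 14 low-input libraries fell into 7 groups, each library being the sum of its 1 or 2 sequencing runs. The control group held 3 spleen libraries, of which control 1 and control 2 were naive Tg101 cells at day 0 and control 3 was Tg101 cells from untreated, leukemia-free mice at day 18. From leukemia-bearing mice came 2 early (day 7), 3 mid (days 13, 13 and 14) and 2 late (days 18 and 16) liver libraries, 2 early (day 7) and 1 mid (day 14) spleen libraries, and 1 library of undivided cells, which had kept their CellTrace Violet dye (CTVhi) at day 18 and were labeled as spleen. All samples carried the labels C57BL/6, 6 weeks of age and wild type, and the receptor transgene was shared by all groups. The labels did not say whether the liver cells were gated on division, nor whether replicates came from separate mice, so p-values measure only the spread between these libraries. Control and liver cells differed in leukemia and in tissue. The day 0 controls also differed from liver cells in time, and their label, naive Tg101, does not say whether they had been in a host. These differences cannot be told apart in a liver-to-control comparison. In RNA from bulk sorted cells, more RNA per cell and more cells that carry a transcript also cannot be told apart.

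S100 proteins are small cytosolic proteins that change shape on binding calcium and then bind partners at the membrane, the cytoskeleton or, when released, outside the cell. Annexins bind acidic phospholipids in membranes in the presence of calcium, and S100A10 pairs with annexin A2 in a complex at the inner face of the plasma membrane. Galectins bind galactose-containing sugars on glycoproteins, and several of these genes are known for higher transcript levels in antigen-experienced than in naive T cells.

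The libraries held 22918996 to 71358287 estimated counts each, with a median of 34349319. Levels are given as CPM, a gene's count relative to the library total after scaling by edgeR's TMM factors, and a gene was called when its adjusted p from edgeR's quasi-likelihood test was under 0.05. The control 1, mid liver 1 and late liver 1 libraries belonged to a series titled TG and the other 11 to a series titled XC, which was used as the batch in each fit. T cell markers (Cd3d, Cd3e, Cd3g, Trac, Cd8a and Cd8b1) summed to 5290 to 5593 CPM in controls, 5359 to 6385 in mid liver and 6038 to 8267 in late liver, while Cd4 reached at most 5.10 CPM. The day 0 controls also held RNA of other cells. Erythroid markers summed to 4468 and 19770 CPM in control 1 and control 2 against 122 in control 3, and the 10 myeloid markers to 945 and 192 against 13.3. Hepatocyte markers reached 196 CPM in mid liver 1 and 304 in late liver 1. In control 1 the same list summed to 304 CPM, almost wholly from Trf, with Alb at no more than 0.0329 CPM in any control. Transcripts of 5000 bases or more took 8.62% of counts in control 1, 5.42% in mid liver 1 and 4.41% in late liver 1, against 9.33% to 12.4% in the control, mid and late libraries of the XC series.

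Across the time course, 7 of the 10 genes rose in liver-infiltrating TCRTg101 at both the mid and the late time points. These were S100a4, S100a6, S100a10, S100a11, S100a13, Anxa2 and Lgals1, and none of the 10 fell. In mid liver against control, 17.3% of all tested genes were called higher and 13.9% lower. In late liver against control, the shares were 19.8% and 17.7%. With mid and late liver pooled, the same 7 genes were called higher, against 23.7% of all genes higher and 23.1% lower. The median log2 fold change of the 10 genes was 2.06 at mid, 2.43 at late and 2.15 for both together, where the medians of all tested genes were -0.06, -0.03 and -0.04. These comparisons share their 3 control libraries. The size of the change differed widely, from a log2 fold change of 0.72 for S100a13 to 6.02 for S100a4 in the combined comparison. Lgals3, Anxa1 and Anxa6 did not pass the test at either time.

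**Figure D1:**
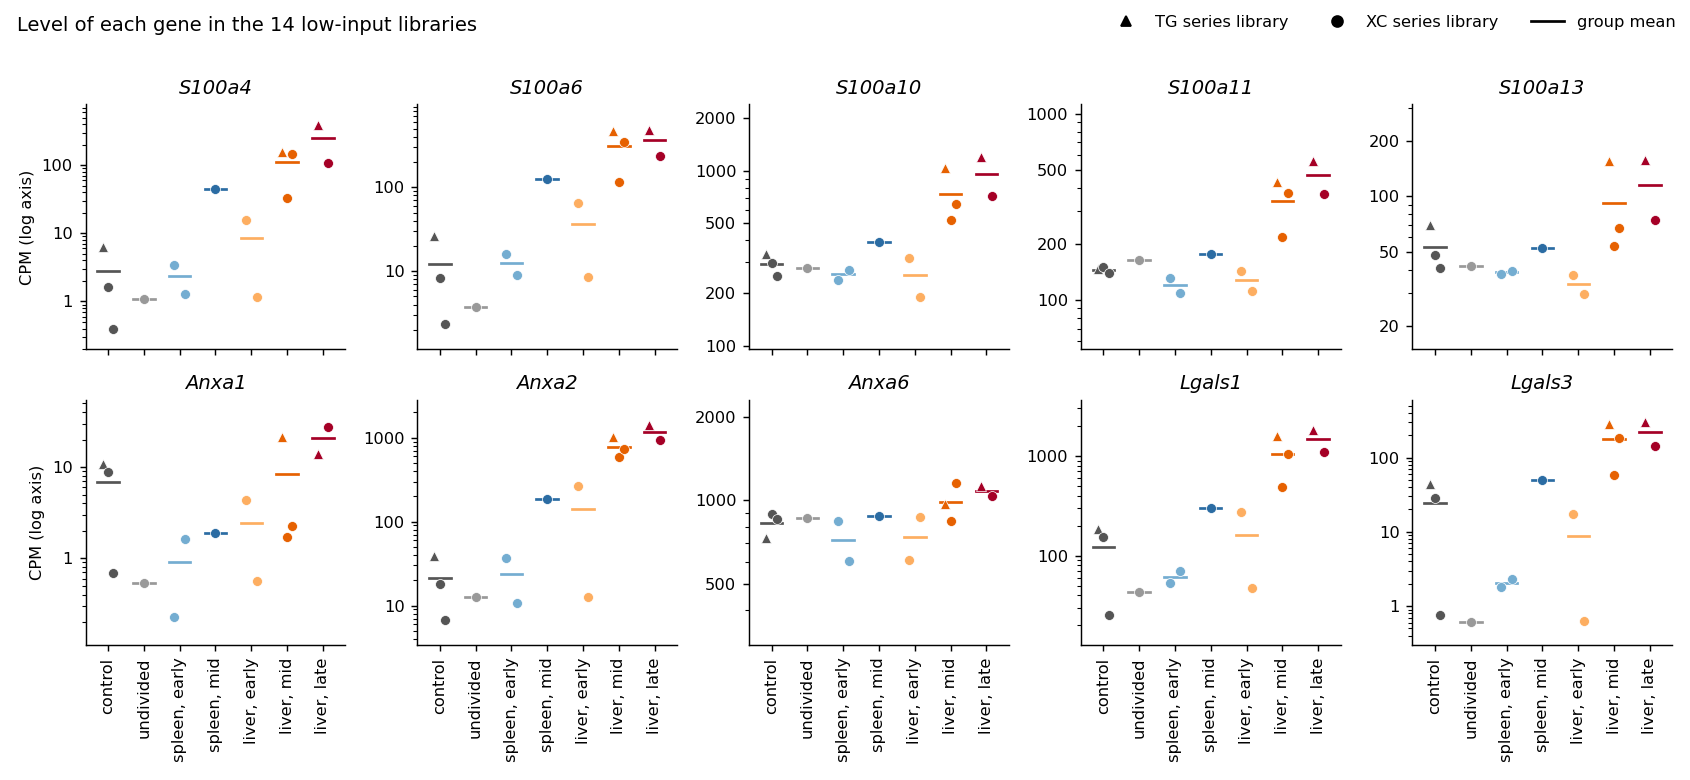
CPM (log axis) of each of the 10 genes in the 14 low-input libraries, by group, with triangles for TG libraries, circles for XC libraries and lines for group means. S100a4, S100a6, Anxa2 and Lgals1 sit far above the controls in all 5 mid and late liver libraries, while Anxa6 stays between 601 and 1149 CPM throughout.

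S100a4 encodes a protein that binds non-muscle myosin and is linked with cell motility. The gene lies at chr3:90603771-90606045 on the plus strand (GRCm38), and S100a4-201 took 99.95% of its counts. Its promoter is shown, with those of S100a6, S100a11 and Anxa2, because these 4 genes were among those that rose and had a reference sequence. The RefSeq sequence (GRCm38.p6, chr3:90603520-90603769, plus strand, 5′ to 3′) covers 250 bases up to the annotated start, and capitals mark the letters TATAAA, 31 bases before the start.
S100a4: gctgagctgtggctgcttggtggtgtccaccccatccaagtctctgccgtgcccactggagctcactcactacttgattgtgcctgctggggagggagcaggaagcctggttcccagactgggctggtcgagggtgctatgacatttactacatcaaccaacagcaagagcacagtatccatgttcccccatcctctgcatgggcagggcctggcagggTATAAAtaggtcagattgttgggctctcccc
S100a4 stood at 6.40, 1.61 and 0.394 CPM in controls 1, 2 and 3 and at 1.07 CPM in undivided cells. It reached 157, 32.7 and 145 CPM in the 3 mid liver libraries and 389 and 109 CPM in the late ones. Every mid and late liver library lay above every control and above the undivided library, by a wide margin even for mid liver 2, the lowest of the 5. The log2 fold change was 5.75 (SE 1.17, adjusted p = 0.0221) at mid and 6.32 (SE 1.22, adjusted p = 0.0131) at late by edgeR's quasi-likelihood test. S100a4 was at rank 8583 of all genes in controls by mean TPM (the authors' level scaled for transcript length), and at rank 338 in late liver. Of its 31-base words, 49.2% also occur in the predicted gene Gm42674, which had at most 0.464 CPM in any library, so the level of S100a4 is less certain than that of genes without such overlap.

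S100a6, also called calcyclin, is expressed in many dividing cells. It lies at chr3:90612882-90624181 on the plus strand, next but one to S100a4 in the same direction. Its promoter (RefSeq, GRCm38.p6, chr3:90612644-90612881, plus strand) is printed up to the first annotated exon, with 3 matches to TGTGGT on either strand, the core letters of RUNX sites, in capitals.
S100a6: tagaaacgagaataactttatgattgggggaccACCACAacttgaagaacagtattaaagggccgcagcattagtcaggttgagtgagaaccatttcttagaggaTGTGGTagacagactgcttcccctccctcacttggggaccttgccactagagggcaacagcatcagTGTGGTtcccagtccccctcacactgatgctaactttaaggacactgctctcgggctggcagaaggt
S100a6 measured 26.3, 8.29 and 2.33 CPM in the controls and 3.71 CPM in undivided cells. In mid liver it measured 466, 115 and 348 CPM, and in late liver 485 and 237 CPM. The groups did not overlap, and the mid and late livers covered much the same range. This was a log2 fold change of 4.93 (SE 0.96, adjusted p = 0.0220) at mid and 4.89 (SE 0.98, adjusted p = 0.0140) at late. S100a4 and S100a6 had a Pearson r of 0.992 in log2 CPM over the 14 libraries, the highest of any pair among the 10 genes, given as a description since the points share libraries, groups and batch.

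S100a10 encodes the light chain that partners annexin A2 and differs from most S100 proteins in having lost the ability to bind calcium. It lies at chr3:93555080-93564643 on the plus strand, and no promoter sequence was matched for it. It was already abundant in controls, at 332, 297 and 251 CPM, with 277 CPM in undivided cells. Mid liver libraries held 1035, 519.8 and 647 CPM and late liver libraries 1196 and 719.5 CPM. All 5 lay above all controls, with mid liver 2 the nearest to them. On the log2 scale the gene rose by 1.24 (SE 0.24, adjusted p = 0.0220) at mid and 1.53 (SE 0.26, adjusted p = 0.00997) at late, so S100a10 rose far less than S100a4 or S100a6 from a much higher start.

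S100a11 encodes calgizzarin, which binds annexin A1. It lies at chr3:93520488-93526287 on the plus strand, next to S100a10. Its promoter (RefSeq, GRCm38.p6, chr3:93520246-93520487, plus strand) is shown with capitals on 2 AP-1 matches (TGANTCA), 3 SP1 matches (GGGCGG) and 1 E-box (CACGTG).
S100a11: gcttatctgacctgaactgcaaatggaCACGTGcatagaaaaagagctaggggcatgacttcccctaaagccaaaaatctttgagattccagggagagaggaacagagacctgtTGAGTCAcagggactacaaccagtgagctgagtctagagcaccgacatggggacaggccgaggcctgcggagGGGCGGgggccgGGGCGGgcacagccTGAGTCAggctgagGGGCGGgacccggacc
S100a11 was the most even of the family in controls, at 146, 149.8 and 139 CPM, with 163 CPM in undivided cells. Mid liver held 429, 218 and 374 CPM and late liver 559.5 and 371.5 CPM. All 5 lay above all controls, with mid liver 2 the nearest to them. By edgeR, the log2 fold change was 1.17 (SE 0.24, adjusted p = 0.0220) at mid and 1.56 (SE 0.27, adjusted p = 0.00998) at late. Of its 31-base words, 48.9% occur in other genes, mostly in Gm12854, which had at most 1.13 CPM in any library.

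S100a13 takes part in the release of proteins that lack a signal peptide, such as fibroblast growth factor 1 and interleukin 1 alpha. It lies at chr3:90514435-90524581 on the plus strand, and its start is 43 bases from the start of S100a1, which runs the opposite way. S100a13 measured 70.1, 48.4 and 41.0 CPM in controls, 154.5, 53.8 and 67.3 CPM in mid liver and 157 and 74.9 CPM in late liver. Mid liver 2 and 3 lay below control 1, so mid liver and control overlapped, whereas both late libraries lay above all controls. The log2 fold change was 0.64 (SE 0.19, adjusted p = 0.0382) at mid and 0.85 (SE 0.22, adjusted p = 0.0194) at late, the smallest changes among the called genes.

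Anxa2 encodes the annexin that joins S100A10 in the membrane complex. It lies at chr9:69453620-69491795 on the plus strand, and Anxa2-201 took 94.9% of its counts. Its promoter (RefSeq, GRCm38.p6, chr9:69453433-69453619, plus strand) is printed up to the first annotated exon, with 1 AP-1 match (TGANTCA) and 1 SP1 match (GGGCGG) in capitals.
Anxa2: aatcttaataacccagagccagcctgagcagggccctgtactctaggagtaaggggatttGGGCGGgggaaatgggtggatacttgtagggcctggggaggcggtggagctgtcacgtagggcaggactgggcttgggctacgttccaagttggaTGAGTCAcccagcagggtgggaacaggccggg
Anxa2 stood at 39.2, 18.1 and 6.80 CPM in controls and 12.5 CPM in undivided cells. It reached 1025, 582.5 and 739 CPM in mid liver and 1414 and 930.4 CPM in late liver. All 5 liver libraries were above all controls and the undivided library, and mid liver 2 was again the lowest. In edgeR's fit the log2 fold change was 5.33 (SE 1.09, adjusted p = 0.0221) at mid and 5.75 (SE 1.13, adjusted p = 0.0136) at late. By mean TPM, Anxa2 went from rank 6040 in controls to rank 179 in late liver.

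Because S100a10 and Anxa2 encode the 2 chains of 1 complex, their length-scaled levels were set side by side. In controls S100a10 had 461, 454 and 435 TPM, whereas Anxa2 had 23.7, 12.9 and 6.13 TPM. The ratio of S100a10 to Anxa2 was therefore 19.5 to 71.0 in controls and 44.0 in undivided cells. It was 1.93 to 2.35 in mid liver and 1.74 and 1.96 in late liver. The mid spleen library had a ratio of 4.60, and the early liver libraries 2.66 and 35.7, so that 1 early liver library resembled mid liver in this ratio and the other resembled controls.

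**Figure D2:**
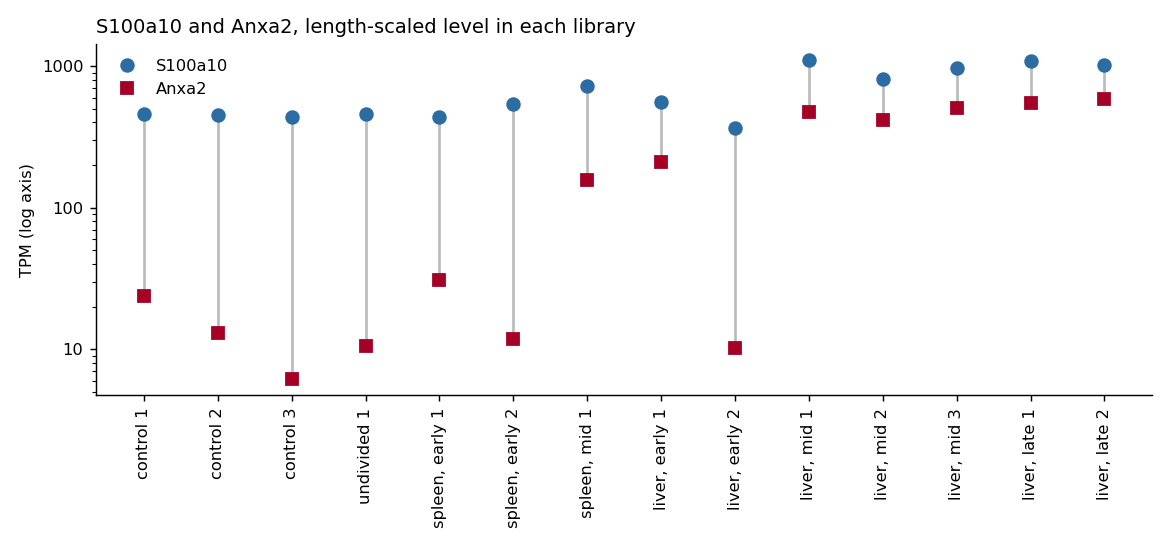
TPM (log axis) of S100a10 (circles) and Anxa2 (squares) in each of the 14 low-input libraries, joined by a line. The line is long in controls, where S100a10 is 19.5 to 71.0 times Anxa2, and short in mid and late liver, where it is 1.74 to 2.35 times Anxa2.

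Anxa1 encodes an annexin with anti-inflammatory activity that acts through formyl peptide receptors. It lies at chr19:20373428-20390944 on the minus strand. It was low throughout, at 10.8, 8.95 and 0.690 CPM in controls, 21.5, 1.72 and 2.25 CPM in mid liver and 14.1 and 27.4 CPM in late liver. Mid liver 2 and mid liver 3 lay within the control range and mid liver 1 above it, while both late libraries lay above all controls. The log2 fold change was -0.27 (adjusted p = 0.874) at mid and 1.83 (SE 1.25, adjusted p = 0.270) at late by edgeR, so no change was called, and its sign changed when single libraries were left out.

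Anxa6 encodes the largest annexin, with a doubled core of repeats. It lies at chr11:54979108-55033445 on the minus strand and was abundant in every library. Controls held 732, 889.7 and 856 CPM, mid liver 971, 841 and 1149 CPM, and late liver 1121 and 1034 CPM. The late libraries lay above all controls, but the log2 fold change was only 0.37 (SE 0.23, adjusted p = 0.214) at late and 0.23 (adjusted p = 0.395) at mid. Anxa6 also had the longest transcripts of the 10, at 2474 bases on average, and the least likeness to the others, with r of 0.257 to 0.771.

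Lgals1 encodes galectin-1, a secreted lectin that binds glycoproteins on T cells. It lies at chr15:78926725-78930465 on the plus strand. Controls differed among themselves, with 184 and 153 CPM at day 0 against 25.5 CPM in control 3, and undivided cells had 43.6 CPM. Mid liver held 1579, 489 and 1036 CPM and late liver 1831 and 1103 CPM. All 5 lay above all controls. Lgals1 rose by 3.07 on the log2 scale (SE 0.83, adjusted p = 0.0328) at mid and 3.47 (SE 0.89, adjusted p = 0.0237) at late. Lgals1 was at rank 51 of all genes by mean TPM in late liver, the highest of the 10, from rank 585 in controls.

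Lgals3 encodes galectin-3, a lectin abundant in macrophages that can link glycoproteins into lattices. It lies at chr14:47367751-47386160 on the plus strand. It showed the widest split within controls, at 43.7 and 28.9 CPM at day 0 against 0.756 CPM in control 3, and it had 0.602 CPM in undivided cells. Mid liver held 284, 58.4 and 183 CPM and late liver 299 and 142 CPM, all above all controls. The log2 fold change was 2.88 (adjusted p = 0.130) at mid and 3.03 (SE 1.42, adjusted p = 0.124) at late by edgeR's quasi-likelihood test, and the call was missed at both. Over both time points together it was 2.94 (adjusted p = 0.0747), where DESeq2 gave 2.97 with an adjusted p of 0.0213.

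Without any model, the 2 late liver libraries lay above all 3 controls for all 10 genes, which was so for 29.5% of all tested genes. The 3 mid liver libraries did so for 7 genes against 22.7% of all genes, with S100a13, Anxa1 and Anxa6 overlapping. For all 5 together the count was again 7, the same genes, against 20.6% of all genes.

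**Figure D3:**
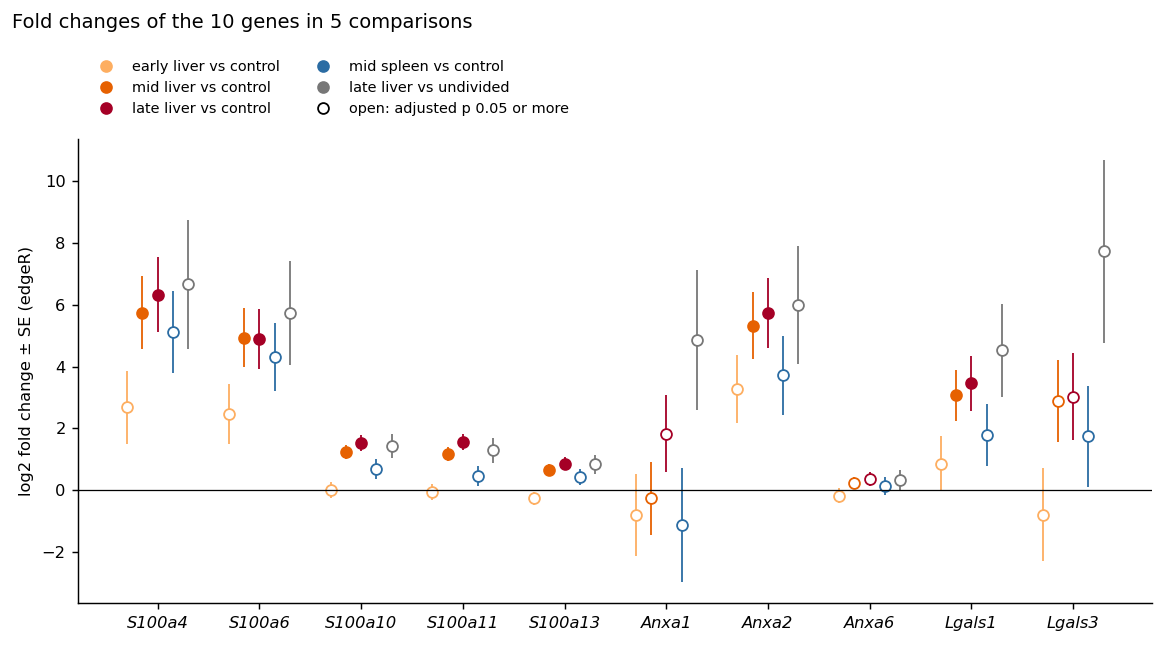
Log2 fold changes with standard errors for the 10 genes in 5 comparisons, where filled points have an adjusted p under 0.05. Filled points occur only for mid and late liver against control and only for S100a4, S100a6, S100a10, S100a11, S100a13, Anxa2 and Lgals1.

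Both series gave the same direction for these 7 genes. Within the XC series (2 controls, 2 mid and 1 late library), the log2 ratio of mean CPM to control at mid was 6.47 for S100a4, 5.44 for S100a6, 1.09 for S100a10, 1.04 for S100a11, 0.44 for S100a13, 5.73 for Anxa2 and 3.10 for Lgals1. Within the TG series, with 1 library each, the same ratios were 4.62, 4.15, 1.64, 1.56, 1.14, 4.71 and 3.10. For Lgals3 they were 3.02 and 2.70, whereas Anxa1 had opposite signs at -1.28 and 0.99. The calls rested on few libraries. By edgeR, 0 of the 14616 genes were called in the XC series alone (3590, 3465 and 5265 at an unadjusted p under 0.05 at mid, late and both, DESeq2 not run), and none of the 10 genes was called in any of the 3 comparisons without control 1, the only TG control. Without control 1, edgeR called 1, 19 and 0 of all 14616 genes at mid, late and both. At mid, all 7 calls were also lost without control 2, mid liver 1 or mid liver 3. Those fits called 1, 0 and 0 of all genes, so the loss was not particular to the 7. Leaving out late liver 1 or late liver 2 leaves 1 late library, so these fits cannot show that the late calls hold. The median log2 fold change of the 10 genes was 2.98 without late liver 1 and 2.29 without late liver 2. Over both together the 7 genes kept their calls without any library but control 1.

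The day 0 and day 18 controls differed in several of the 10 genes. S100a4, S100a6, Anxa1, Anxa2, Lgals1 and Lgals3 were lower in control 3 than in both day 0 controls. By less, so were S100a10 (251 against 332 and 297 CPM), S100a11 (139 against 146 and 149.8 CPM) and S100a13 (41.0 against 70.1 and 48.4 CPM), but not Anxa6. The marker sums of myeloid cells (13.3 against 945 and 192 CPM), neutrophils (9.89 against 157 and 27.6 CPM) and erythroid cells were lower there as well. The defining macrophage markers Csf1r, Adgre1 and C1qa were at 3.68, 0.131 and 1.31 CPM in control 3 and at most 176, 78.5 and 139.5 CPM in the day 0 controls. In mid and late liver the myeloid sum was 12.95 to 55.0 CPM and C1qa at most 1.77 CPM, far below control 1, although the myeloid sum was above that of control 3 in 4 of the 5 libraries. Of the other myeloid markers, Cd68 was at 8.89 to 29.3 CPM in mid and late liver against 98.4 and 14.6 CPM at day 0, 1.84 CPM in control 3 and 3.95 CPM in undivided cells, and Lyz2 reached 20.9 CPM in late liver 1 against 2.40 CPM in control 3. Over both time points 5 of the 8 tested myeloid markers were called lower and none higher, and Cd68 and Lyz2 were not called (log2 fold change -0.62 and -2.54, adjusted p = 0.522 and 0.0828 by edgeR). Of the 4 tested hepatocyte markers, 3 were called higher there and 0 lower, against 23.7% of all genes higher and 23.1% lower. These were Alb, Apoa1 and Apoa2 (log2 fold change 11.52, 7.80 and 5.14), while Trf was not called (-1.38). When only control 3 served as control, an alternative chosen after seeing the data, the median log2 fold change of the 10 genes was 3.77 at mid and 4.97 at late, with no gene of any kind called by edgeR against a lone library (3020 and 4103 genes had an unadjusted p under 0.05). The part of other cells in these levels was otherwise not tested.

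**Figure D4:**
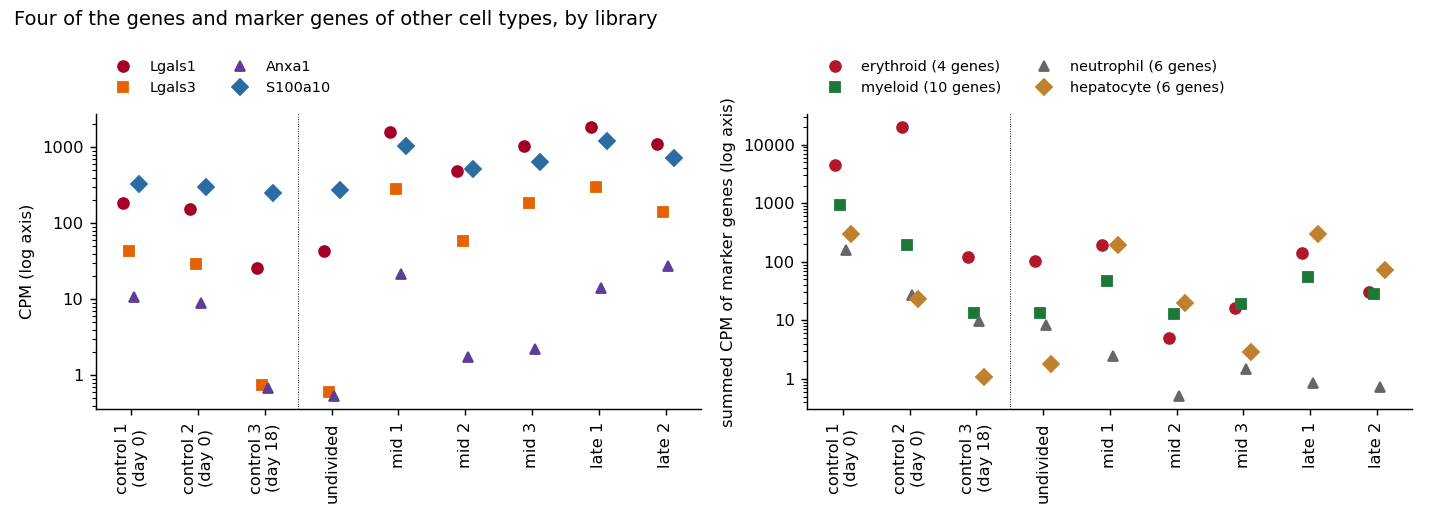
Left, CPM (log axis) of Lgals1, Lgals3, Anxa1 and S100a10 in the control, undivided, mid and late liver libraries. Right, summed CPM (log axis) of erythroid, myeloid, neutrophil and hepatocyte markers in the same libraries, where the day 0 controls hold the highest erythroid and myeloid sums (4468 and 19770 CPM, 945 and 192 CPM).

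Transcript length moved with the fold changes as well. Genes with transcripts under 1000 bases, weighted by counts, had a median log2 fold change of 0.36 in mid and late liver against control (1906 genes, 31.1% called higher). Genes of 1000 to under 2000 bases had 0.31 (3623 genes, 34.9% higher) and longer genes -0.23 (9087 genes, 17.7% higher). The 5 S100 genes (498 to 715 bases) and Lgals1 (697.5 bases) were all in the shortest class, Anxa1, Anxa2 and Lgals3 in the middle one and Anxa6 in the longest. S100a4, S100a6, Anxa2 and Lgals1, at 6.02, 4.92, 5.52 and 3.24, stood far above the median of their class, S100a10 and S100a11 at 1.36 and 1.33 less so, and S100a13 at 0.72 was the called gene closest to it. The part of length in the result was not tested.

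**Figure D5:**
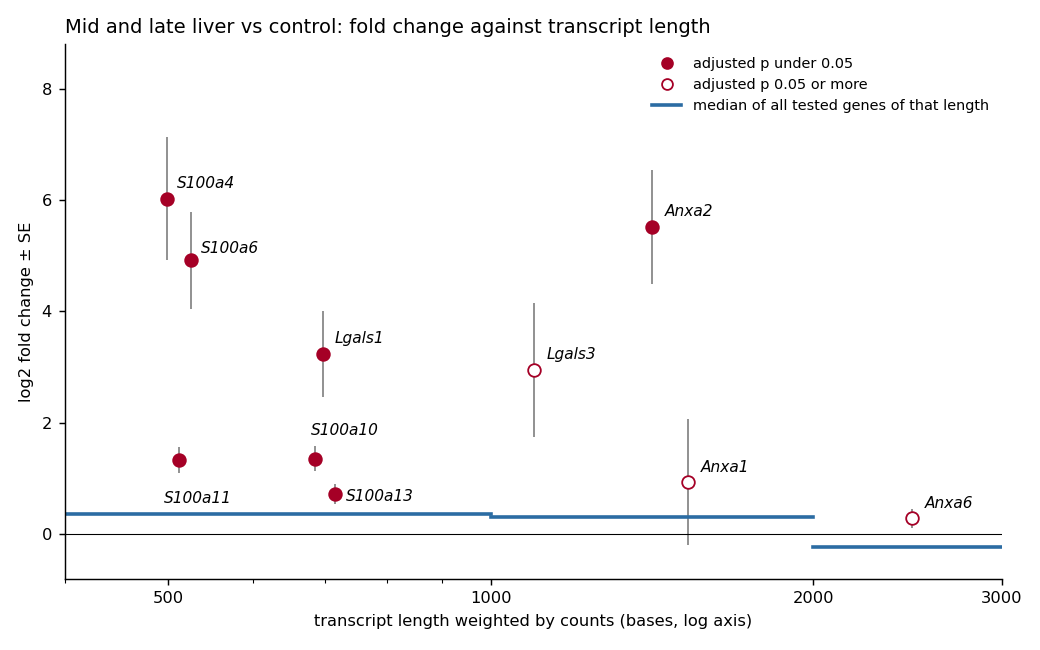
Log2 fold change with standard error in mid and late liver against control, against the count-weighted transcript length (log axis) of each of the 10 genes. Blue lines mark the median of all tested genes in each of 3 length classes, 0.36, 0.31 and -0.23, and S100a13 is the called gene nearest to its line.

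At day 7 none of the 10 genes was called. In early liver against control, edgeR called 0 of 14616 genes (0%), with 1496 at an unadjusted p under 0.05, and DESeq2 called 351 genes but none of the 10. The 2 early liver libraries differed strongly. Anxa2 was at 268.5 and 12.5 CPM, Lgals1 at 276 and 46.8 CPM and Lgals3 at 17.1 and 0.632 CPM. S100a4 was at 15.9 and 1.17 CPM and S100a6 at 64.7 and 8.57 CPM. Early liver 1 lay above all controls for Anxa2, Lgals1, S100a4 and S100a6 and within the control range for Lgals3, and early liver 2 lay within the control range for all of these but Lgals3, where it lay below. Anxa2 had the largest log2 fold change, 3.26 (SE 1.10, adjusted p = 0.462 by edgeR), which was 4.19 without early liver 2 and -0.25 without early liver 1. Such a fit leaves 1 early liver library, assumed to vary like the other groups, so only its fold change is given. S100a10 and S100a11, which were even in controls, had changes of 0.00 and -0.06.

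In early spleen against control, edgeR called 0% of genes (858 at an unadjusted p under 0.05), and DESeq2 called 13, none of them among the 10. Lgals3 had 1.80 and 2.29 CPM and Anxa1 0.225 and 1.61 CPM in the early spleens, below both day 0 controls in each case. In the single mid spleen library the pattern was partly that of liver. S100a4 was at 45.0 CPM, S100a6 at 126 CPM, Anxa2 at 187 CPM and Lgals1 at 298 CPM, each above all controls, and for S100a4 and S100a6 also above the lowest mid liver library. S100a10 (391 CPM), S100a11 (176 CPM) and Lgals3 (50.0 CPM) also exceeded every control but by less. Mid spleen against control gave log2 fold changes of 5.11 for S100a4 (SE 1.33, adjusted p = 0.805), 4.30 for S100a6 and 3.72 for Anxa2, and edgeR called 0.00684% of genes, which is 1 gene and not one of the 10.

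Liver and spleen of the same day were also set against each other. Early liver against early spleen had 0% of genes called by edgeR (1256 at an unadjusted p under 0.05, 64 called by DESeq2), and mid liver against mid spleen 0.00684%. None of the 10 genes was called in either by edgeR or DESeq2. Anxa2 had the largest difference in both, 2.56 (SE 1.21, adjusted p = 0.571) and 1.61 (SE 1.47, adjusted p = 0.741) on the log2 scale. Mid spleen was a single library.

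Between late and mid liver edgeR called 0% of genes (783 at an unadjusted p under 0.05), and DESeq2 called 34, none of them among the 10. The log2 fold changes ran from -0.04 for S100a6 to 2.10 for Anxa1 (SE 1.36, adjusted p = 0.925), and 9 of the 10 were above 0. The ranges of the mid and late libraries overlapped for S100a4, S100a6, S100a10, S100a11, S100a13, Anxa1, Anxa2, Anxa6, Lgals1 and Lgals3 alike.

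Undivided cells from leukemia-bearing mice had control-like levels. Their S100a4 (1.07 CPM), S100a6 (3.71 CPM), S100a10 (277 CPM), S100a13 (42.0 CPM), Anxa2 (12.5 CPM), Anxa6 (864 CPM) and Lgals1 (43.6 CPM) lay inside the control range, S100a11 (163 CPM) lay above it, and Lgals3 (0.602 CPM) and Anxa1 (0.535 CPM) lay just below it. Late liver against the undivided library gave log2 fold changes of 6.67 for S100a4, 5.75 for S100a6, 1.42 for S100a10, 6.00 for Anxa2, 4.52 for Lgals1 and 7.73 for Lgals3 (SE 2.96, adjusted p = 0.165). Here edgeR called 0% of genes, with 3787 at an unadjusted p under 0.05, while DESeq2 called 1877 genes including 7 of the 10, all but S100a13, Anxa1 and Anxa6. Undivided cells were a single library, and they differed from late liver in labeled tissue as well as in being selected as undivided. Whether the late liver cells were gated on division was not stated.

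Other members of the families were called in both directions over mid and late liver together, where 23.7% of all tested genes were higher and 23.1% lower. Of the other S100 genes 4 of 12 were tested, and 1 was called higher and 2 lower. S100a1, a calcium sensor of muscle, rose by 2.21 on the log2 scale (adjusted p = 0.0174 by edgeR) with 3.43, 1.29 and 0.624 CPM in controls, 8.58, 3.15 and 4.94 CPM in mid liver and 15.3 and 8.55 CPM in late liver. Mid liver 2 lay below control 1, and S100a1 was not called at mid (adjusted p = 0.0590). S100a8 and S100a9, the chains of calprotectin in neutrophils, fell by 6.34 and 6.52 (adjusted p = 0.00783 and 0.00807). S100a8 was at 68.2, 9.37 and 4.63 CPM in controls and at most 0.701 CPM in mid and late liver, and both genes are also on the neutrophil marker list, whose sum was 9.89 to 157 CPM in controls and at most 2.47 CPM in mid and late liver. S100a13, S100a4 and S100a6 lie in 1 cluster with S100a1, S100a8 and S100a9 on chromosome 3, whose ends are S100a1 (from 90511034) and S100a9 (to 90695721), and S100a11 and S100a10 lie 2824767 bases further. Within that cluster S100a5, between S100a4 and S100a6, had at most 0.591 CPM and S100a14, S100a16, S100a2 and S100a7a at most 0.787 CPM, so genes that rose stood beside genes that were barely detected.

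Of the other annexin genes 6 of 8 were tested, and 4 were called higher and none lower in mid and late liver together, against 23.7% and 23.1% of all genes. Anxa5, known for binding phosphatidylserine, rose by 0.78 (adjusted p = 0.00561) from 72.7 to 110.4 CPM in controls to 145 and 233 CPM in late liver, and Anxa7 rose by 0.71 (adjusted p = 0.00641). Anxa4 rose by 0.95 (adjusted p = 0.0486) and the weakly expressed Anxa9 by 1.75 (adjusted p = 0.0212). Mid liver alone had 2 of 6 called higher (Anxa5 and Anxa7), and late liver 3 of 6 (Anxa5, Anxa7 and Anxa9).

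Of the other galectin genes 5 of 7 were tested, with 2 higher and 2 lower over both time points, against 23.7% and 23.1% of all genes. Lgals7, a galectin of stratified epithelium, rose by 5.97 (adjusted p = 0.00543), from at most 0.257 CPM in controls to 15.2, 2.05 and 11.8 CPM in mid liver and 36.0 and 8.49 CPM in late liver. The galectin-related gene Lgalsl rose by 2.78 (adjusted p = 0.00543). Lgals8 fell by 0.81 (adjusted p = 0.00857), from 44.3 to 49.3 CPM in controls to 22.5 and 30.2 CPM in late liver, and Lgals4 fell by 0.97 (adjusted p = 0.0117).

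Among 12 partner genes 8 were tested, of which 2 were higher and 1 lower in mid and late liver together, shares near or under the 23.7% and 23.1% of all genes. At mid liver 0 of the 8 were called by edgeR (2 at an unadjusted p under 0.05, DESeq2 not counted). Ahnak, the large scaffold bound by the S100A10 and annexin A2 complex, rose by 1.09 (adjusted p = 0.0215). It was not called at mid or late alone (adjusted p = 0.0530 and 0.0663 by edgeR). Mid liver 1 (216 CPM) and late liver 1 (166 CPM) lay within the control range of 129 to 263 CPM, and the other mid and late libraries lay above it. Spn, which encodes the galectin-1 ligand CD43, rose by 0.63 (adjusted p = 0.0379). Ager, the receptor for S100 proteins, fell by 1.26 (adjusted p = 0.0262) at levels of at most 3.33 CPM, and Ptprc, encoding CD45, fell by 0.78 in late liver (adjusted p = 0.0268). With library totals in place of TMM factors all 34 calls of these other genes kept their direction and 29 stayed under the threshold, those lost being Anxa7 and Spn at late and Ahnak, Anxa4 and Spn over both.

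Of all 32851 RefSeq promoters, each 250 bases before a start, 6.75% held an AP-1 match (TGANTCA), 4.11% an NF-kB consensus match, 12.4% TATAAA, 32.7% an SP1 match (GGGCGG), 14.0% a RUNX match (TGTGGT) and 6.02% an E-box (CACGTG), counted on both strands. Promoters were matched for 7 of the 10 genes, and of these 2 held AP-1, 0 NF-kB, 3 TATAAA, 3 SP1, 1 RUNX and 1 E-box matches. AP-1 matches were in S100a11 and Anxa2, at 136 and 38 bases and at 95 bases before the start. A match describes the letters of the window and not a bound site.

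The genes most like each member over the 14 libraries were found by Pearson r of log2 CPM. Anxa2 was most like Ccnb2 (r = 0.996), Plk1 (r = 0.990) and Ccnf (r = 0.989), S100a4 most like Birc5 (r = 0.982) and Ccnf (r = 0.980), and Lgals1 most like Spc25 (r = 0.985). S100a6 was most like Cdkn3 (r = 0.977). Lgals3 was most like Havcr2 (r = 0.959), with Fbln1 (r = 0.958) and E2f2 (r = 0.957) almost level with it. S100a10, S100a11 and S100a13 were most like Cox17 (r = 0.991), Hikeshi (r = 0.988) and H2afv (r = 0.991), while Anxa1 and Anxa6 had weaker best matches, Ifitm2 (r = 0.953) and H2afy (r = 0.911). These values describe 14 libraries that share groups, batch and depth, and were not tested.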

How the data were processed

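Low-input RNA-seq of sorted TCRTg101 was used, with 26 runs from 15 libraries, of which 14 were low-input and 1 oligo-dT. The authors quantified reads with kallisto against the mouse genome (mm10 and GRCm38 in the submitters' processing notes), and the kallisto version was not given in the sources used here. The deposited values were estimated counts and TPM per transcript and run. For each gene, the estimated counts of its transcripts were added, runs of a library were added, and sums were rounded to whole numbers. Deposited TPM values were summed over transcripts and averaged over runs with weights by run totals. Transcripts were assigned to genes with GENCODE vM21 (GRCm38), which may differ from the annotation of the authors, and 116710 of 118783 transcripts (98.25%) matched, holding 99.0% to 99.29% of counts.

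A gene was tested when it reached 10 counts in 6 or more of the 11 control, undivided and liver libraries, using edgeR 4.0.16 (R 4.3.3, TMM scaling, two-sided quasi-likelihood test, Benjamini-Hochberg over 14616 genes). The fit held those 11 libraries, or all 14 for spleen comparisons, with the series in the titles (TG or XC) as the batch, which was taken to be the authors' sequencing batch. Standard errors were derived from the fold change and its F statistic. The authors used DESeq2, and DESeq2 1.42.0 was run as an alternative. Other alternatives were RLE and library-total scaling, no series term, other filters, other sets of libraries or runs, and leaving out each library. The comparison with the day 18 control alone was added after the data were seen. The scripts were tested on simulated data.

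The 10 genes, the lists of other family members and partners, and the marker lists were chosen with earlier results of these data known. All 10 genes were named in every comparison, with other listed genes where they passed the threshold against control and, for likeness, up to 3 genes of highest Pearson r for each. Motifs were searched on both strands in RefSeq promoters of GRCm38.p6.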

Additional observations from a re-analysis of the deposited data

How the results depend on the processing

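No paired analysis was possible because the replicate numbers were given in accession order and mark no shared mouse or day. Of 550 alternative fold changes of the 10 genes in mid, late or mid and late liver against control, 427 kept direction and side of the threshold, 110 kept direction and lost the call, 6 gained one and 7 changed sign. All sign changes were in Anxa1. At mid it was 0.27 without the series term and 2.56 against the day 18 control alone (log2), and -1.62 to 0.90 over fits without 1 library. Over such fits it was -0.60 to 3.42 at late and -0.55 to 1.91 over both, the lowest without late liver 2. In early liver, Anxa2 was -0.25 without early liver 1 and 4.19 without early liver 2. The number of the 10 genes called was 7 in each main comparison. It was 4 at mid without the series term, and 0 in all 3 comparisons in the XC series alone or against the day 18 control alone. Leaving out 1 library gave 0 to 6 at mid and 0 to 7 over both. The mid fits with 0 of the 10 genes called held 0 or 1 called genes of 14616. Leaving out a control gave 0 to 7 at late and 0 for early liver. Fits that left 1 library in a compared group are not counted here. S100a13 at mid also lost its call without control 3, and Lgals1 without control 3 or mid liver 2. With no filter beyond 1 count, where 0 had been called, the counts were 3 for early liver, 1 for late against mid liver, 8 for late liver against undivided, 2 and 5 for early and mid spleen, 5 for early liver against early spleen and 3 for mid liver against mid spleen, in fits that called 1483, 434 and 2512 of 29525 genes and 643, 631, 984 and 756 of 32821 genes. For late liver against undivided DESeq2 called 7. Without the series term the count of all genes called at mid was 1388 against 4568, and without control 1 it was 1, 19 and 0 at mid, late and both. Library totals in place of TMM moved the median of all genes to -0.25, -0.32 and -0.27, with 1778 of 4699, 1895 of 5653 and 2480 of 7142 calls higher, against 2533 of 4568, 2900 of 5482 and 3460 of 6829 with TMM. S100a13 at mid then lost its call, and no other member did. The fit of only the groups compared could not be run for late liver against undivided. Fewer libraries leave fewer degrees of freedom, and the cause of these differences was not tested. Genes at a few CPM, such as Anxa1, and groups of 1 library limited what could be detected.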

Other observations

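The estimated shares of the S100a6 transcripts differed between controls and late liver, although control 3 held only 71 counts of the gene. S100a6-203 took 35.7% to 49.7% of the gene's counts in controls and 63.8% and 64.1% in late liver, whereas S100a6-201 took 50.3% to 63.1% in controls and 19.9% and 24.8% in late liver. A transcript of S100a6 that retains an intron was at 0 to 2.41% in controls and at 11.5% and 16.0% in late liver. For Anxa6, whose total was not called, the leading transcript took 42.4% to 53.0% in controls and 64.2% and 65.7% in late liver. Of the counts of Lgals1, 59.6% went to a transcript that the annotation lists as a target of nonsense-mediated decay, and 40.4% to the protein-coding one. Shares of transcripts are estimates made by kallisto from shared sequence, and they were not tested.

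A sample labeled naive Tg101, with no day given, was also sequenced from an oligo-dT library, which entered no comparison. Where a library had 2 runs, the runs agreed to a median fold of 1.05 over 96 pairs of gene and library with at least 30 counts, and the largest fold was 1.93.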
